A study of Mus musculus with 18 samples.

Results

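Neural differentiation (ND) of mouse embryonic stem cells without Zeb2 was followed here through genes whose transcripts were higher on d4 than on d0 in the Zeb2 KO cells and then lower again on d6, without a matching decline in the control cells. They were chosen from the 10965 genes of the deposited table on the group means of log2(TPM + 1), where TPM is a gene's read count scaled for transcript length and library size. A gene was taken when the KO mean on d4 was at least 1 above that on d0, the KO mean on d6 was at least 1 below that on d4, and the Ctrl mean on d6 was less than 0.5 below that on d4. Those 3 differences are therefore descriptions and were not tested. Of the 1664 genes that were at least 1 higher on d4 than on d0 in Zeb2 KO, 54 were at least 1 lower on d6 than on d4, and of those 36 were also at least 0.5 lower on d6 in Ctrl while 18 were not. Of these 18 genes, 17 are described. The set was named for an induction that started and was then lost in KO. The 17 genes are Pax6, Irx5, Gli1, Stox2, Ccnd2, Rprm, Trib2, Nsg2, Slitrk5, Cd24a, Tmem35, Igfbp5, Epdr1, Ebi3, Pak6, Polr3gl and Gm16550.

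The cells were stem cells whose Zeb2 alleles are floxed (Ctrl, Zeb2 fl/fl) or deleted (KO, Zeb2 -/-), and the labels give the strain of both as CD1. Which of the lines of each genotype were sequenced is not given in the sources used here, so a difference between genotypes may be one between lines. Both genotypes were collected as ground state cells in medium with LIF, the MEK inhibitor PD0325901 and the GSK3 inhibitor CHIR99021 (d0), after 4 days with serum in which embryoid bodies formed (d4), and after 2 further days in N2B27 with 500 nM retinoic acid (d6). There were 3 libraries for each genotype and day, numbered as replicates, which the study describes as independent experiments, and p-values measure the spread between these libraries.

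Zeb2 is a zinc finger transcription factor that binds DNA at CACCT motifs and mostly represses its targets, and it is needed when pluripotent cells enter the neural lineage. In ND, cells leave the naive state, pass through a stage with epiblast genes and, under retinoic acid, switch on genes of posterior neural progenitors. Pax6 and the Iroquois factors such as Irx5 pattern the neural tube, Gli1 reports Hedgehog signalling, and D-type cyclins carry progenitors through G1 of the cell cycle.

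The libraries held 9622622 to 15617675 reads on the genes of the table, inferred from the steps of the TPM values. Zeb2 itself checked the labels, with 7.81, 7.53 and 7.65 TPM in the Ctrl d6 libraries and 0.717, 0.594 and 0.733 TPM in KO d6. Markers of the neural progenitor label of d6 were present in Ctrl, where the summed TPM of 8 measured markers (Pax6 among them) was 427 to 527 and all 8 had a mean of at least 1 TPM. In KO d6 the sum was 100 to 139 and 4 of the 8 had a mean below 1 TPM, while 5 epiblast markers summed to 910 to 1047 TPM against 134 to 144 in Ctrl d6. Ctrl d6 also held RNA of markers listed for other cell types. The 3 measured of 5 trophectoderm markers, Krt8, Krt18 and Tfap2c, summed there to 1029 to 1601 TPM, against 1028 to 2031 in KO d6. In Ctrl from d0 to d6 Krt8 and Krt18 rose (6.11 and 6.57 in log2(TPM + 1)) and Tfap2c fell (-2.23). That sum thus follows the 2 keratins. The 6 measured visceral endoderm markers summed to 137 to 235 against 24.6 to 41.4. For mesoderm 2 of 6 markers were measured, Meox1 and Eomes, which summed to 130 to 184 against 8.52 to 13.5. In Ctrl from d0 to d6 Meox1 rose (6.73) and Eomes fell (-0.73), so the mesoderm sum follows Meox1. The part of such shifts in the results below was not tested. In bulk RNA, fewer cells that express a gene and less of its RNA per cell cannot be told apart.

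**Figure D1:**
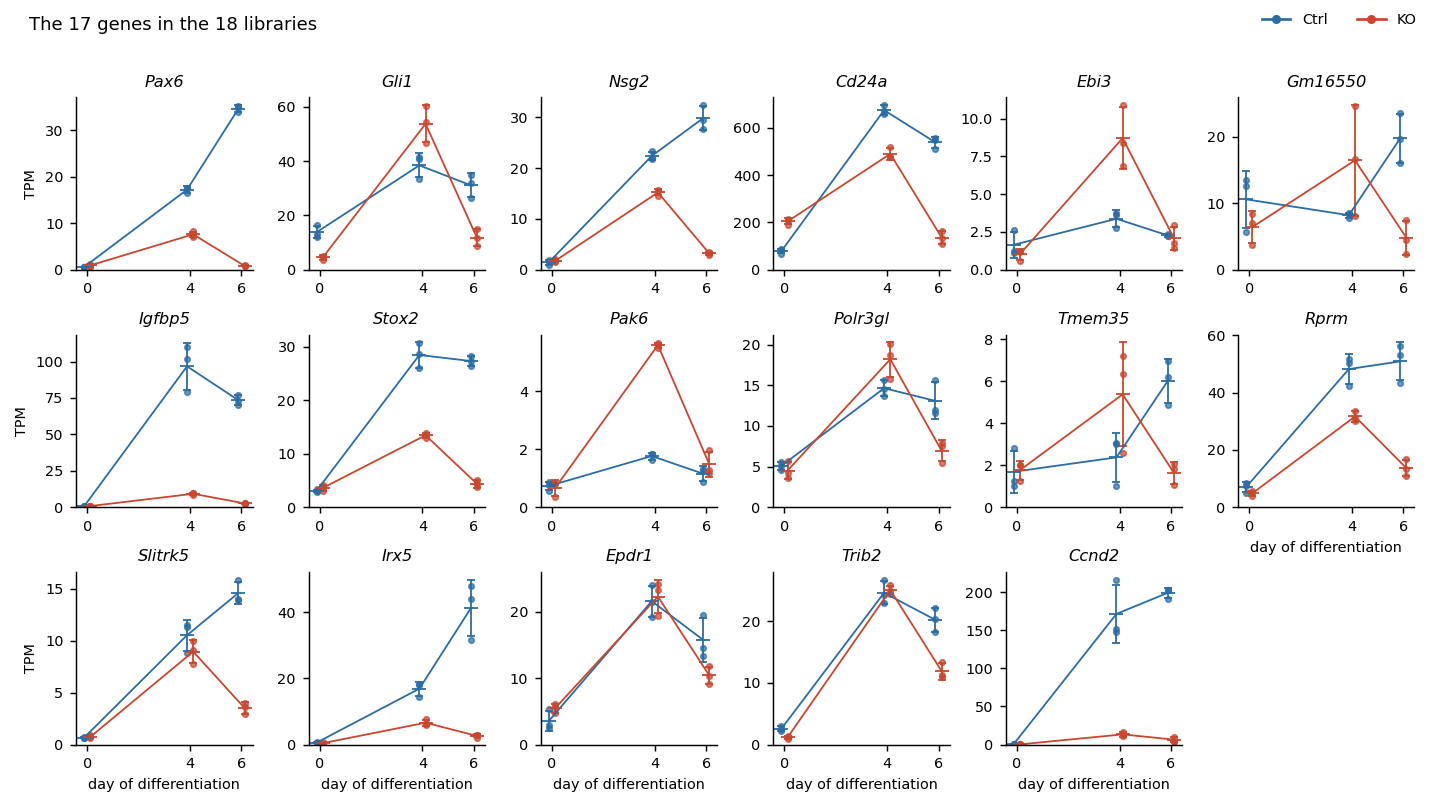
TPM of the 17 genes (vertical axes, from 0, scaled for each gene) on d0, d4 and d6 of ND (horizontal axes) in Ctrl (blue) and Zeb2 KO (red). Each point is 1 library, and lines join the means, with bars for the SD (n = 3). The KO means peak on d4 in every panel, by the choice of the genes, while the Ctrl means of Pax6, Irx5, Nsg2 and Slitrk5 go on upward to d6.

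Pax6, a paired-box factor of neural progenitors (GRCm38 chromosome 2, 105668900 to 105697364, plus strand), had the largest decline. It measured 0.589, 0.646 and 0.609 TPM in the 3 Ctrl libraries of d0, 17.6, 16.4 and 17.7 on d4 and 33.8, 35.1 and 35 on d6. The KO libraries had 0.676, 0.824 and 1.33 TPM on d0, 7.51, 8.25 and 7.11 on d4 and 0.934, 0.827 and 0.715 on d6. Every KO library of d4 stood above every one of d0 and d6, and the d0 and d6 ranges of KO overlapped. The KO mean of d6 was 10.8% of that of d4 and 2.38% of the Ctrl mean of d6. In Ctrl, Pax6 rose from d0 to d4 by 3.50 ± 0.12 on the log2(TPM + 1) scale (± SE of the limma fit, adjusted p = 6.78e-13), and on d4 it was lower in KO than in Ctrl (log2 difference -1.08 ± 0.12, limma, adjusted p = 2.12e-06). All log2 differences below are on this scale, which understates the change of genes near 1 TPM, and are given with this SE.

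Irx5 (chromosome 8, 92357625 to 92376286, plus strand), an Iroquois homeobox factor, had 0.596, 0.355 and 0.791 TPM in Ctrl d0, 14.4, 18.1 and 18.2 in Ctrl d4 and 48, 43.9 and 31.8 in Ctrl d6. Its KO values were 0.248, 0.693 and 0.293 TPM on d0, which rest on 1 to 6 reads per library, 6.17, 7.65 and 5.97 on d4 and 2.75, 2.98 and 2.12 on d6. Ctrl libraries were higher at each step without overlap between days, whereas the KO libraries of d6 lay between those of d0 and d4. The rise in Ctrl from d0 to d4 was 3.50 ± 0.18 (limma, adjusted p = 5.89e-11), and the KO level on d4 was lower than the Ctrl level (log2 difference -1.24 ± 0.18, limma, adjusted p = 2.78e-05).

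Gli1 (chromosome 10, 127329882 to 127341974, minus strand), the zinc finger factor whose own gene is switched on by Hedgehog signalling, differed from these 2 genes in that its KO peak was not below the Ctrl level. Ctrl had 11.9, 13.2 and 16.3 TPM on d0, 33.3, 40.6 and 41.3 on d4 and 26.3, 32 and 34.9 on d6. KO had 3.49, 4.87 and 5.18 TPM on d0, 54.5, 46.5 and 60.1 on d4 and 15, 11.6 and 8.75 on d6. KO thus began under every Ctrl library, stood over every Ctrl library on d4 and ended under all of them. The choice favoured genes with low KO values on d0, and the lower Gli1 level there passed the test (log2 difference -1.43 ± 0.18, limma, adjusted p = 1.45e-05). The d4 difference was 0.47 ± 0.18 and did not (limma, adjusted p = 0.0341), although it did after median-ratio rescaling (adjusted p = 0.00603), after quantile normalization (adjusted p = 0.00393) and in a voom fit of the inferred reads (adjusted p = 0.000248). Its exons overlap those of Arhgap9 and of an antisense gene on the other strand, and the strand of the reads is not stated, so their reads cannot be told apart.

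Stox2 (chromosome 8, 47180048 to 47446362, minus strand), a winged helix protein, had 28.6, 26 and 30.7 TPM in Ctrl d4 and 13, 13.9 and 13.4 in KO d4. Ctrl then kept 27.3, 26.5 and 28.2 TPM on d6 while KO had 5.09, 4.27 and 3.69, which overlapped its d0 values of 3.03, 4.21 and 3.53. The Ctrl rise by d4 was 2.85 ± 0.12 (limma, adjusted p = 3.93e-12) and the KO level on d4 was lower than that of Ctrl (log2 difference -1.03 ± 0.12, limma, adjusted p = 2.33e-06).

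Ccnd2 (chromosome 6, 127125162 to 127152193, minus strand) encodes cyclin D2, which with its partner kinases drives entry into S phase. It measured 0.905, 0.426 and 0.700 TPM in Ctrl d0, 147, 152 and 216 in Ctrl d4 and 192, 204 and 203 in Ctrl d6. KO libraries had 0.164, 0.188 and 0.278 TPM on d0 (6 to 9 reads per library), 10.6, 17.1 and 12.3 on d4 and 10.2, 5.15 and 3.95 on d6. The KO libraries of d6 came close to overlapping those of d4, at 10.2 against 10.6 TPM, and the KO peak was 7.77% of the Ctrl mean of that day. Cyclin D2 RNA rose by 6.67 ± 0.24 in Ctrl by d4 (limma, adjusted p = 1.02e-12) and was lower in KO on d4 (log2 difference -3.59 ± 0.24, limma, adjusted p = 6.61e-09). On the other strand, 2 antisense genes overlap its exons.

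The other D-type cyclins took other courses. Ccnd1 was higher in KO than in Ctrl on d4, at 185, 244 and 218 against 42.1, 55.2 and 55.7 TPM (log2 difference 2.06 ± 0.13, limma, adjusted p = 4e-09), and measured 157, 136 and 164 TPM in KO d6. Ccnd3 was lower in KO on d4, at 20.2, 21.7 and 23.2 against 45.6, 49.1 and 39.6 TPM (log2 difference -1.01 ± 0.08, limma, adjusted p = 5.78e-08). The families of the 17 genes were looked up after the genes were known, so these values are given as a description of the relatives.

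Rprm (chromosome 2, 54084093 to 54085552, minus strand), which encodes the p53 target Reprimo linked to G2 arrest, had 42.4, 51.9 and 50.4 TPM in Ctrl d4 and 53.1, 56.2 and 43.5 in Ctrl d6. The KO values were 33.7, 30.2 and 31.2 TPM on d4 and 13.4, 16.7 and 10.9 on d6, still above the 3.87, 5.70 and 4.82 TPM of KO d0. Trib2 (chromosome 12, 15791727 to 15816922, minus strand), a Tribbles pseudokinase, had overlapping values in the genotypes on d4, with 23, 24.2 and 26.7 TPM in Ctrl and 24.4, 25 and 25.8 in KO. By d6 it measured 20.3, 22.2 and 18.2 TPM in Ctrl and 11.3, 10.9 and 13.5 in KO. Its d4 difference between genotypes was 0.03 ± 0.13, within the spread of the libraries (limma, adjusted p = 0.866).

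None of the 17 genes is in the list of neuronal genes, of which 26 were measured, 13 were at least 1 higher on d4 than on d0 in KO and 0 of these were at least 1 lower again on d6. Over all genes, 54 of the 1664 with such a KO rise were lower again, so 0 of 13 is near the share of all genes. Nsg2 (chromosome 11, 32000463 to 32059202, plus strand), a vesicular protein of neurons that sorts receptors, had 0.937, 1.97 and 1.53 TPM in Ctrl d0, 21.9, 23.3 and 22 in Ctrl d4 and 27.7, 32.3 and 29.4 in Ctrl d6. KO libraries gave 1.79, 1.43 and 2.03 TPM on d0, 14.5, 15.7 and 15.4 on d4 and 3.20, 3.57 and 2.83 on d6. The groups did not overlap at d4 or d6, and the rise in Ctrl by d4 was 3.26 ± 0.14 (limma, adjusted p = 7.41e-12).

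Slitrk5 (chromosome 14, 111675097 to 111683141, plus strand), a transmembrane protein of synapses, had 8.79, 11.3 and 11.5 TPM in Ctrl d4 and 7.79, 9.95 and 9.10 in KO d4, values that overlapped (log2 difference -0.21 ± 0.13, limma, adjusted p = 0.193). On d6 Ctrl had 15.8, 14 and 14 TPM and KO 4.00, 2.92 and 3.62. The genotypes thus overlapped on d4 and stood well apart on d6. Tmem35 (chromosome X, 134295225 to 134305969, plus strand), a membrane protein that helps to assemble nicotinic receptors, was low throughout, at 5 to 45 reads per library. It measured 1.02, 3.06 and 3.02 TPM in Ctrl d4 and 6.19, 4.88 and 6.96 in Ctrl d6, against 7.21, 6.34 and 2.55 in KO d4 and 1.81, 1.04 and 2.03 in KO d6. KO replicate 3 stood apart on d4, below the Ctrl libraries 2 and 3 of that day.

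Cd24a (chromosome 10, 43578284 to 43584265, plus strand), a small anchored glycoprotein found on neuroblasts and epithelia, was the most abundant of the 17 genes. Ctrl had 86.6, 81.4 and 67.8 TPM on d0, 657, 669.6 and 697 on d4 and 510.0, 547 and 557 on d6. KO had 216, 191 and 205 TPM on d0, 475, 519 and 475 on d4 and 109, 135 and 164 on d6. KO started higher than Ctrl (log2 difference on d0 1.37 ± 0.11, limma, adjusted p = 2.43e-07) and all 3 KO libraries of d6 lay below those of d0.

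Of the secreted products, Igfbp5 (chromosome 1, 72857932 to 72874884, minus strand), which binds insulin-like growth factors, showed the widest gap. Ctrl libraries held 0.697, 0.415 and 1.02 TPM on d0, 78.8, 102 and 109.7 on d4 and 73.1, 77.1 and 70.0 on d6. Those of KO held 0.724, 0.971 and 0.581 TPM on d0, 9.44, 9.52 and 8.54 on d4 and 2.85, 2.20 and 2.68 on d6. The KO peak was 9.48% of the Ctrl mean of d4, a log2 difference of -3.25 ± 0.15 (limma, adjusted p = 7.43e-11). Epdr1 (chromosome 13, 19591706 to 19619927, minus strand), a secreted ependymin-related protein, overlapped between the genotypes on d4, at 19.3, 23.9 and 21.5 TPM in Ctrl and 19.4, 24.1 and 23.3 in KO (log2 difference 0.04 ± 0.19, limma, adjusted p = 0.867). On d6 it measured 19.4, 14.5 and 13.3 TPM in Ctrl and 11.8, 9.12 and 10.3 in KO, so that the gap between genotypes was small beside that of Pax6. Ebi3 (chromosome 17, 55952640 to 55957022, plus strand), a subunit of interleukin 27, rests on 2 to 44 reads per library, and an antisense gene on the other strand overlaps its exons. It had 3.78, 2.74 and 3.60 TPM in Ctrl d4 and 8.35, 10.9 and 6.88 in KO d4, and the d6 values overlapped, at 2.22, 2.35 and 2.23 in Ctrl and 2.96, 1.47 and 1.79 in KO.

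Pak6 (chromosome 2, 118663303 to 118698020, plus strand), a p21-activated kinase, had 0.767, 0.855 and 0.572 TPM in Ctrl d0, 1.63, 1.85 and 1.82 in Ctrl d4 and 0.856, 1.30 and 1.31 in Ctrl d6. The KO values were 0.358, 0.787 and 0.847 TPM on d0, 5.51, 5.59 and 5.68 on d4 and 1.17, 1.98 and 1.29 on d6. Its KO excess on d4 was 1.25 ± 0.16 (limma, adjusted p = 7.94e-06), and on d6 the ranges of the genotypes overlapped. Polr3gl (chromosome 3, 96577872 to 96594181, minus strand), a subunit of RNA polymerase III, had 13.8, 15.7 and 14.5 TPM in Ctrl d4 and 18.8, 15.8 and 20.1 in KO d4 (log2 difference 0.29 ± 0.16, limma, adjusted p = 0.133). On d6 its values were 11.6, 15.7 and 12 TPM in Ctrl and 7.90, 7.47 and 5.45 in KO, without overlap, and another gene on the opposite strand shares exon sequence with it. Gm16550 (chromosome 1, 165148824 to 165148949, minus strand), a processed pseudogene, rests on 0 to 10 reads per library, and none of its 4 tested differences passed the threshold (limma, lowest adjusted p = 0.0446).

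**Figure D2:**
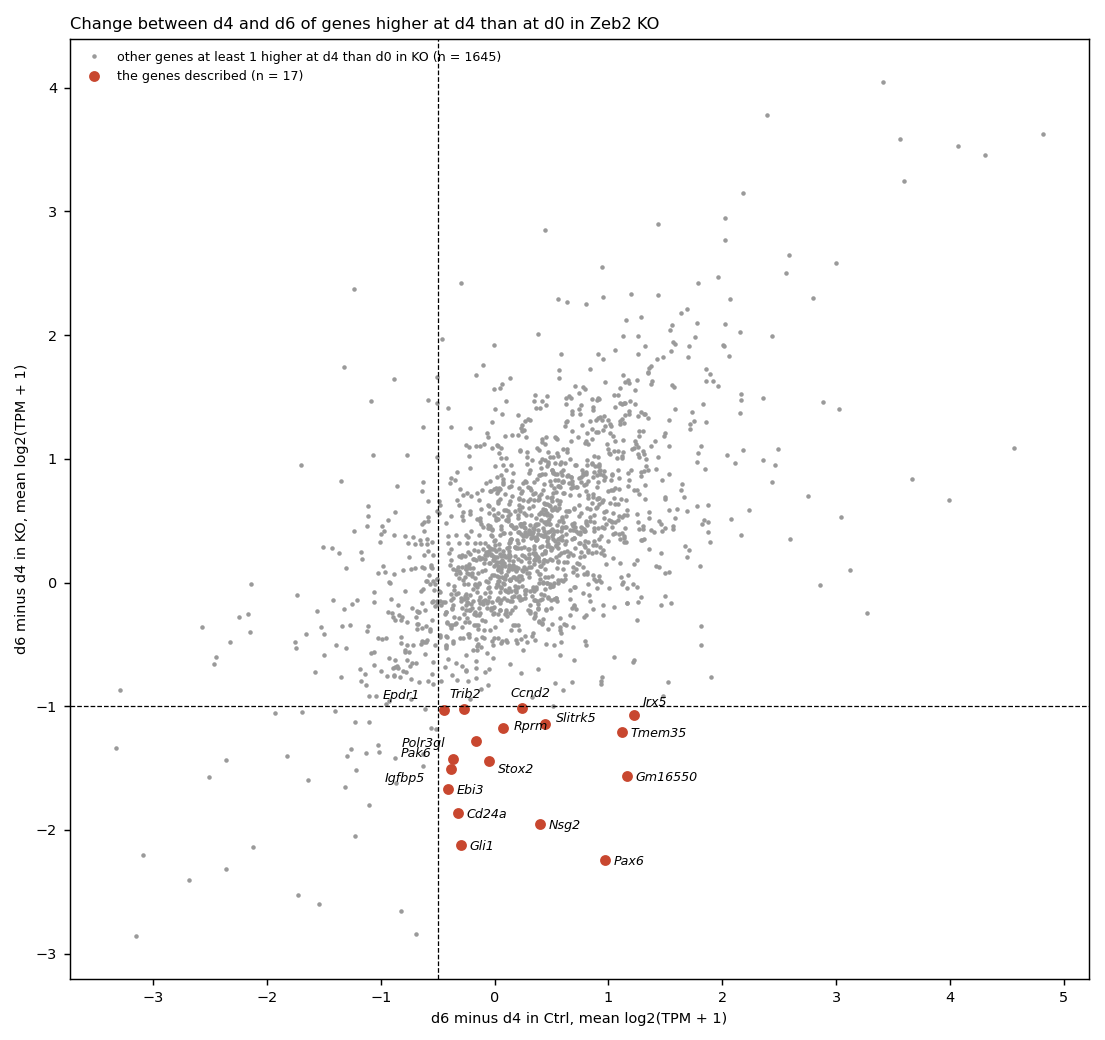
Difference between d6 and d4 in mean log2(TPM + 1) in Ctrl (horizontal axis) and in Zeb2 KO (vertical axis) for 1662 of the 1664 genes at least 1 higher on d4 than on d0 in KO. Grey points are 1645 other genes, red points the 17 genes described, and dashed lines the limits of the choice at -0.5 and -1. Among the red points Pax6 lies lowest, at -2.24 in KO and 0.97 in Ctrl, and Epdr1, Trib2 and Ccnd2 lie at the horizontal limit.

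The decline in KO ranged from -2.24 for Pax6 and -2.12 for Gli1 to -1.01 for Ccnd2, in log2 units between the means of d4 and d6. It brought 4 of the 17 genes (Pax6, Cd24a, Gm16550 and Tmem35) below their own KO mean of d0, while 13 ended above it and 7 of these by at least 1, Trib2 by 2.59 and Ccnd2 by 2.53. By these untested means the name of the set holds in full for 4 genes and for part of the gain in the others. Of the 4, Cd24a had all KO libraries of d6 below those of d0. The KO ranges of d0 and d6 overlapped for Pax6, Tmem35 and Gm16550. They also overlapped for Stox2 and Polr3gl, whose KO means of d6 stayed above those of d0. The Ctrl mean was higher on d6 than on d4 for 8 genes, most for Irx5 (1.23) and Gm16550 (1.16), and lower for 9, most for Epdr1 (-0.44).

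The limits of the choice cut through a continuum. Ccnd2 (-1.01), Trib2 (-1.02) and Epdr1 (-1.03) were the genes just inside the limit on the KO decline, and Gm17709 (-0.997), Mir124a-1hg (-0.94) and Trim36 (-0.92) just outside it. At the limit on the KO rise, Tmem35 (1.13) was just inside and Srgap3 (0.88) and Fbn1 (0.87) just outside. At the limit on the Ctrl change, Epdr1 (-0.44) was just inside and Gm14448 (-0.51) and Arl4a (-0.56) outside. When the rule was applied to 2 of the 3 replicate numbers, it chose 23, 17 and 25 genes, of which 9, 9 and 11 met it again in the libraries of the number left out. In those libraries the median KO decline of the chosen genes was -1.06, -1.12 and -1.16. The limit of -1 was the smallest decline allowed where they were chosen, so these medians do not show how far the decline weakened. The decline had the same sign in 22 of 23, 13 of 17 and 22 of 25 genes. The share of all genes lower on d6 than on d4 in KO was not counted. Of the chosen genes, 14, 10 and 15 were among the 17 described. Pax6, Gli1, Nsg2 and Cd24a were chosen under all 23 other settings and sets of libraries that were tried, and Epdr1 under 16, the fewest.

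Whether Ctrl cells also induced these genes by d4 was asked with libraries of which the choice had used those of Ctrl d4 but not those of Ctrl d0. Between d0 and d4, 15 of the 17 genes rose in Ctrl (limma, adjusted p below 0.01), where 45.1% of all genes did. Tmem35 (log2 difference 0.32 ± 0.34, limma, adjusted p = 0.403) and Gm16550 (-0.25 ± 0.39, limma, adjusted p = 0.573) did not pass. The median change of the 17 genes was 2.78, that of all genes 0.26. Among the 36 genes that declined in both genotypes it was 1.65 and 29 rose (80.6%). Among the 1507 genes whose KO difference between d6 and d4 stayed above -0.5 it was 1.45 and 1309 rose (86.9%). The share of the 17 genes that rose, 88.2%, is near these and is not particular to them among genes higher on d4 in KO. The smallest rises were those of Pak6 (0.68 ± 0.16, limma, adjusted p = 0.00115), which became -0.24 after quantile normalization, and Ebi3 (0.76 ± 0.23, limma, adjusted p = 0.00743), which no longer passed without Ctrl d0 replicate 2 or 3 or Ctrl d4 replicate 1 or 3 (adjusted p between 0.0251 and 0.0418) and became -0.12 after quantile normalization. The rise of Ebi3 also did not pass with a pseudocount of 5 (adjusted p = 0.0129), after median-ratio rescaling (adjusted p = 0.0467), in a fit to the 2 groups alone (adjusted p = 0.0189) and in voom (adjusted p = 0.0476). Median-ratio rescaling shifted the median of all genes to -0.02 and the share of higher genes among those called from 66.9% to 49.4%.

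**Figure D3:**
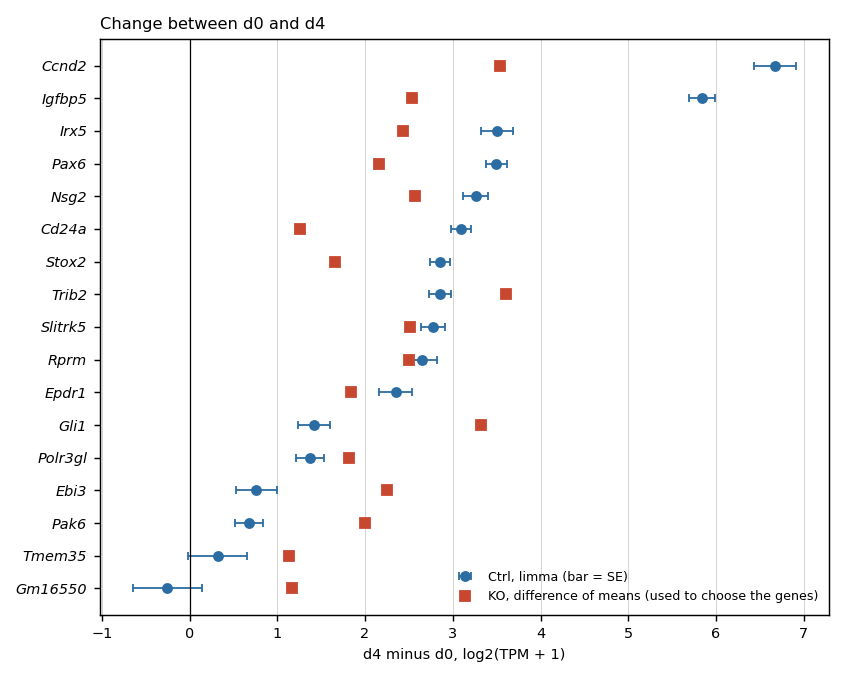
Difference between d4 and d0 in log2(TPM + 1) (horizontal axis) for each of the 17 genes, in Ctrl (blue circles, limma, bars for the SE) and in Zeb2 KO (red squares, difference of group means). The KO values lie above 1 by the choice of the genes. The Ctrl value is the higher of the pair by over 1 for Ccnd2, Igfbp5, Irx5, Pax6, Cd24a and Stox2. The KO value is the higher by over 1 for Gli1, Ebi3, Pak6 and Gm16550.

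The choice had also used the libraries of Ctrl d6, and it favoured genes with high values there, so the change from d0 to d6 in Ctrl is given as a description. It passed the threshold as a rise in 14 of the 17 genes (45.8% of all genes), with a median of 2.72. Tmem35 passed over this interval (1.43 ± 0.34, limma, adjusted p = 0.000962), though not after quantile normalization (adjusted p = 0.394), while Ebi3 (0.35 ± 0.23, limma, adjusted p = 0.18) and Pak6 (0.31 ± 0.16, limma, adjusted p = 0.0865) did not. After quantile normalization Pak6 was lower on d6 than on d0 (-0.66, adjusted p = 0.00149) and Polr3gl did not pass (adjusted p = 0.0585).

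On d4 the levels of KO and Ctrl were set side by side. The choice had used the libraries of both genotypes on d4 and favoured genes with high KO and low Ctrl values on that day, so the counts describe the chosen genes and are not independent of the choice. Lower in KO than in Ctrl on d4 were 8 genes (Ccnd2, Igfbp5, Irx5, Pax6, Stox2, Rprm, Nsg2 and Cd24a), where 32.7% of all genes were, and their KO means ran from 7.77% (Ccnd2) to 72.6% (Cd24a) of the Ctrl means. Higher in KO were Pak6 and Ebi3, 2 of 17 genes, a share near the 12.7% of all genes. For the other 7 genes the difference did not pass the threshold, and it ranged from -0.21 ± 0.13 for Slitrk5 to 0.90 ± 0.34 for Tmem35 (limma, adjusted p = 0.0307). The median was -0.21 over the 17 genes and -0.16 over all genes.

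The smaller of these differences depended on the scaling or on single libraries. After median-ratio rescaling, which moved the median of all genes to 0.002 and the share of higher genes among those called from 28.0% to 49.6%, Nsg2, Rprm and Cd24a no longer passed and 5 genes were lower in KO. Nsg2 (adjusted p = 0.0901) and Rprm (adjusted p = 0.0404) did not pass in limma after quantile normalization either, nor with a pseudocount of 0.1 (adjusted p = 0.0273 and 0.0135). Nsg2 (-0.53 ± 0.14, limma, adjusted p = 0.0042) also lost its call without any 1 of the 6 libraries of d4, with adjusted p up to 0.018. Cd24a (-0.46 ± 0.11, limma, adjusted p = 0.00256) lost it without Ctrl d4 replicate 3, KO d4 replicate 1 or KO d4 replicate 3, with adjusted p up to 0.0118. Rprm (-0.59 ± 0.17, limma, adjusted p = 0.00855) lost it without any 1 of 10 libraries (Ctrl d0 replicate 2, Ctrl d4 replicates 2 and 3, Ctrl d6 replicates 1 and 2, KO d0 replicate 3, the 3 replicates of KO d4 and KO d6 replicate 1), with adjusted p up to 0.0349. After quantile normalization Polr3gl (adjusted p = 0.00347) and Tmem35 (adjusted p = 0.00415) were called higher in KO. Tmem35 also gained a call without KO d4 replicate 3 (1.27, adjusted p = 0.00365).

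On d0, before ND, the choice had used the KO libraries and not those of Ctrl. It favoured genes with low KO values on that day, so the counts of d0 are not independent of the choice. Gli1 and Trib2 (-0.73 ± 0.13, limma, adjusted p = 0.000257) were lower in KO (11.8% of the 17 genes against 16.4% of all genes). Cd24a was higher (5.88% against 10.6%). Neither share is above that of all genes, and neither is read as a property of the 17 genes. The other 14 genes did not pass. Genes of chromosomes 8 and 12 were shifted upward in KO on d0, with medians of 0.332 and 0.357 against -0.0696 over all genes. On d4 these medians were -0.202 and -0.181 (all genes -0.164) and on d6 -0.154 and -0.177 (all genes -0.14), without the upward shift. The d0 values of Irx5 (-0.17 ± 0.18), Stox2 (0.17 ± 0.12) and Trib2 stand beside the d0 shifts. Their part, also in the KO rise from d0 to d4, was not tested. Pax6 differed by 0.25 ± 0.12 (limma, adjusted p = 0.114) and did not pass, although it did after quantile normalization (0.49, adjusted p = 0.00415). Ccnd2 was called lower in KO with a pseudocount of 0.1 (-1.29, adjusted p = 0.00297). Without Ctrl d0 replicate 3, Epdr1 was called higher in KO (0.80, limma, adjusted p = 0.00171), and without Ctrl d0 replicate 1 Rprm was called lower (-0.63, limma, adjusted p = 0.00884). The lower level of Trib2 did not pass after quantile normalization (adjusted p = 0.0103).

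**Figure D4:**
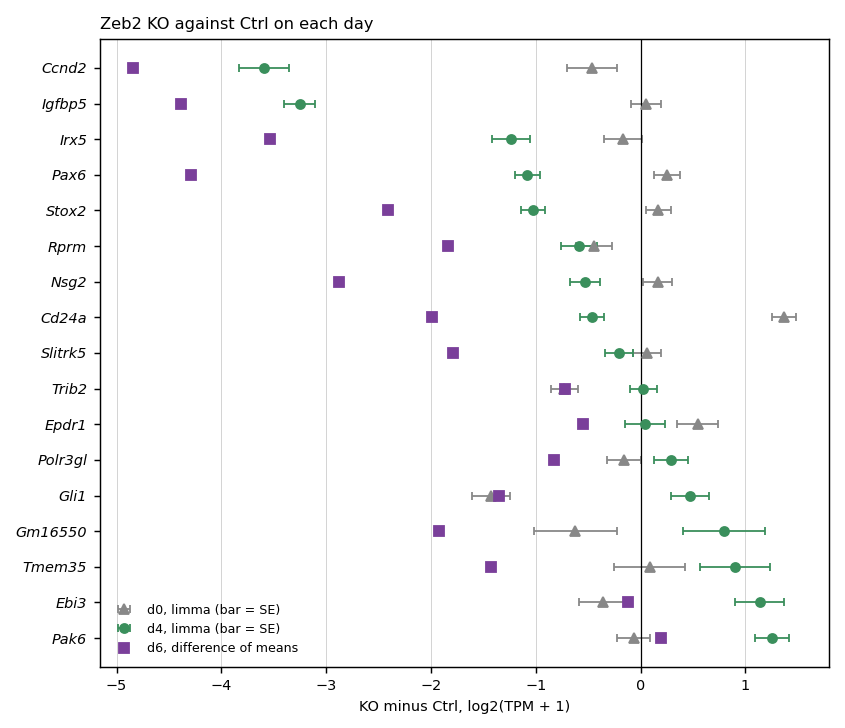
Difference between Zeb2 KO and Ctrl in log2(TPM + 1) (horizontal axis) for each of the 17 genes on d0 (grey triangles) and d4 (green circles), from limma with bars for the SE, and on d6 (purple squares, difference of group means, untested). Genes are ordered by the d4 difference. Pak6 is the gene with a d6 value above 0, and the d6 value lies left of the d4 value for every gene, as the limits of the choice require.

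On d6, where both genotypes had served in the choice, the KO libraries of 15 genes lay below all Ctrl libraries (41.1% of all genes did), and those of Ebi3 and Pak6 overlapped them. Ccnd2 (-4.84), Igfbp5 (-4.38), Pax6 (-4.29) and Irx5 (-3.53) had the largest gaps in log2 units. Epdr1 was at 66% and Trib2 at 58.9% of the Ctrl mean.

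Other genes of the pathways are given from lists made with the earlier results of these data known. Of 29 measured neural progenitor factors, the list that holds Pax6 and Irx5, 18 rose and 5 fell in Ctrl by d4, and 14 were lower and 3 higher in KO than in Ctrl on d4 (limma, adjusted p below 0.01). Of all genes, 45.1% rose and 22.3% fell in Ctrl by d4, and 32.7% were lower and 12.7% higher in KO on d4. The shares of the list that fell or were higher in KO were near these and are not read as a property of the list. In KO, 7 of the 29 were at least 1 higher on d4 than on d0, and 3 of these were at least 1 lower again on d6. Among the 3 are Pax6 and Irx5, which were chosen for this course, so the count partly repeats the choice. Over all genes, 54 of the 1664 with such a KO rise were at least 1 lower again. Of 12 measured Hedgehog genes, listed after Gli1 was seen, 10 rose and 2 fell in Ctrl by d4, and 8 were lower and 1 higher in KO on d4. The shares that fell or were higher in KO were again near those of all genes. Gli1 was the Hedgehog gene that met the rule. The receptor gene Ptch1, another target of the pathway, had 23.6, 22.8 and 24.6 TPM in KO d4 and 16.9, 11.8 and 16.2 in KO d6. In Ctrl it had 26.5, 28.5 and 30.1 TPM on d4 and 17.9, 18.7 and 20.7 on d6, so its d6 libraries lay below those of d4 in both genotypes. The same held for Hhip, at 5.16, 5.67 and 6.18 TPM in KO d4 and 0.287, 0.156 and 0.327 in KO d6. Its Ctrl libraries had 12.9, 10.5 and 10.9 TPM on d4 and 1.55, 1.76 and 2.59 on d6.

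Gli2, the main activator of the pathway, measured 34.8, 35.7 and 40.0 TPM in KO d4 and 15.9, 19.3 and 17 in KO d6. In Ctrl it was also lower on d6, at 27.3, 31.5 and 30.1 TPM against 36.4, 35.7 and 38.4 on d4. Gli3, mostly a repressor, was lower in KO than in Ctrl on d4 (log2 difference -0.94 ± 0.10, limma, adjusted p = 1.43e-06), at 16.4, 19.8 and 18.7 against 36, 35 and 37 TPM. On d6 Gli3 had 14.7, 11.7 and 12.5 TPM in KO and 53.8, 60.6 and 64.8 in Ctrl. The gene of the signal transducer Smo rose in Ctrl by d4 (2.87 ± 0.12, limma, adjusted p = 4.43e-12) and had 40.2, 51.1 and 50.8 TPM in KO d4 and 56.8, 60.6 and 69.6 in KO d6, without the later decline. Among the Iroquois genes, Irx3, the neighbour of Irx5 in the same cluster, was lower in KO on d4 (log2 difference -2.76 ± 0.17, limma, adjusted p = 2.92e-09), at 4.27, 6.14 and 5.04 against 34.2, 43.7 and 44 TPM, and its KO libraries had 3.87, 4.29 and 3.68 TPM on d6. Irx1 was at 53.5, 51.2 and 39.3 TPM in Ctrl d6 and 0.796, 0.241 and 0.631 in KO d6.

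**Figure D5:**
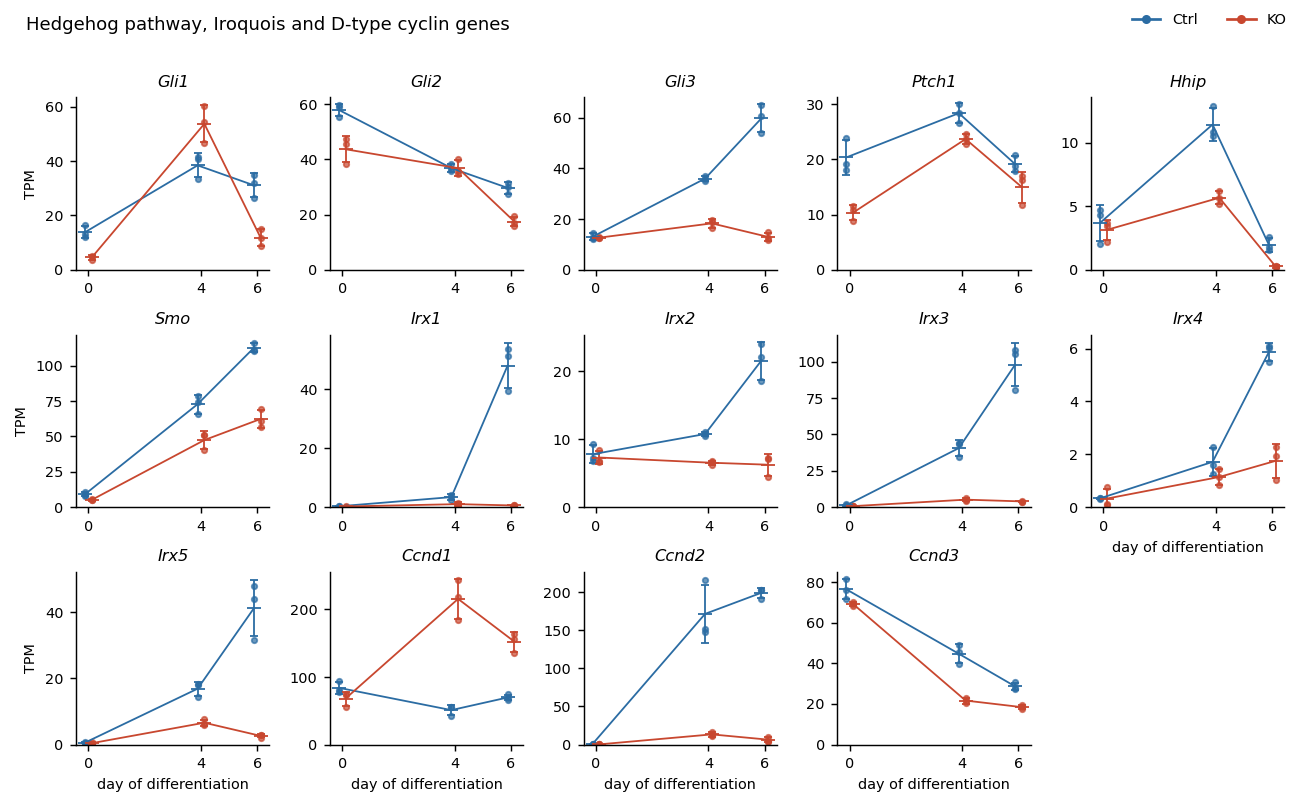
TPM (vertical axes, from 0, scaled for each gene) of 6 Hedgehog pathway genes, 5 Iroquois genes and the 3 D-type cyclin genes on d0, d4 and d6 (horizontal axes) in Ctrl (blue) and Zeb2 KO (red), with points for libraries and means ± SD (n = 3). The KO points of Gli1 on d4 lie above those of Ctrl, Irx1, Irx3 and Irx5 go on upward in Ctrl to d6, and Ccnd1 is highest in KO d4.

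The promoters of the genes were searched for the motif that Zeb2 binds and for one of retinoic acid receptors. RefSeq windows (GRCm38.p6) from 250 bases before to 50 after a start were found for 12 of the 17 genes, 15 windows in all, and none was found under the names of Gli1, Cd24a, Gm16550, Irx5 and Ccnd2. CACCT, on either strand, stood in 7 of the 15 windows (46.7%) and in 50.1% of the 9600 windows of all genes of the table. CACCTG, which includes it, stood in 4 of 15 (26.7%) against 18.9%, with Pak6 entering by the windows of both its starts. Counted by gene it stood in 3 of 12 (Nsg2, Pak6 and Tmem35) against 1650 of 7565, near the share of all genes. A pair of CACCT with a gap of at most 45 bases stood in 2 of 15 windows (13.3%) against 7.4%. AGGTCA, the core hexamer bound by retinoic acid receptors, stood in 0 of 15 against 12.4%. These are matches of letters in short windows, not sites of binding. Windows with CACCTG on either strand at a pair of places are shown for Nsg2, the third largest decline, and Pak6, with the motif in capitals, 5′ to 3′ on the plus strand.
Nsg2, chr11:32000327-32000399, upstream of the annotated gene: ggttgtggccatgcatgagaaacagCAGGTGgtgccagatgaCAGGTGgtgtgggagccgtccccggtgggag
Pak6, chr2:118677112-118677202, before an inner start within an intron of Pak6: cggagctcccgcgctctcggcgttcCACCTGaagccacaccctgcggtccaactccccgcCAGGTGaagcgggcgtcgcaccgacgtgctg
The sites begin 67 and 50 bases before the Nsg2 start, and 109 and 74 bases before that of Pak6. Nsg2 and Pak6 stood on opposite sides of Ctrl on d4, with KO means at 67.9% and 317% of the Ctrl means.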

How the data were processed

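RNA was sequenced as single short reads in 18 libraries, 3 for each genotype on each of the 3 days. Alignment to GRCm38 was done by the authors in TopHat2 2.0.13 and counting per gene in featureCounts 1.4.6. The deposited values are TPM, from which the authors had removed short noncoding, low and least variable genes. Genes that the authors removed could not be chosen here. The deposited table has 11046 entries with 10965 different genes, and the first entry of each was kept. The authors' 3 score columns per gene were not used, and the number of other unused columns of values was 0.

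The members and lists were chosen with earlier results of these data known, and the lists of Hedgehog genes and of gene families after the genes were seen. Of the 18 genes that met the rule, 17 are named and counted, and 1 is not reported here. TPM carry no depth, but a common length per gene turned the values of all 10965 genes into whole reads (within 0.0001), with 1 added read per gene, which gave 9622622 to 15617675 reads per library (median 12131165). Differences between groups were fitted on log2(TPM + 1) over all 18 libraries in limma 3.58.1 under R 4.3.3 (eBayes with trend), with Benjamini-Hochberg adjustment over all 10965 genes for each comparison and a threshold of 0.01. The method was tested on simulated data. The plots and the search for motifs were made in Python 3.11.15 with pandas 2.3.3 and matplotlib 3.10.9, and gene positions are those of GENCODE M21. Alternatives were other pseudocounts (0.1 and 5), a mean TPM of at least 10, median-ratio and quantile normalization, eBayes without trend, a replicate block, a fit to the 2 groups compared, voom on the inferred reads, and leaving out each library.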

Additional observations from a re-analysis of the deposited data

Results flagged for a closer look

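Between d4 and d6 the TPM of the genotypes moved in opposite directions for 6 genes, without overlap between the libraries of the 2 days (log2 differences of means). Pax6 changed by -2.24 in KO and 0.97 in Ctrl, Nsg2 by -1.95 and 0.40, Irx5 by -1.07 and 1.23, Slitrk5 by -1.14 and 0.44, Tmem35 by -1.21 and 1.12, and Gm16550, at 0 to 10 reads per library, by -1.56 and 1.16. For Gm16550 replicate 1 held 2 reads in both KO d4 and KO d6, so its separation there comes from library scaling. These differences between the genotypes were not tested, because the choice of the genes fixed the direction in KO and bounded that of Ctrl between d4 and d6. The groups of 3 libraries are too small for a test of single outlying libraries.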

How the results depend on the processing

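The number of genes that met the rule was 18, and it was 32 with a pseudocount of 0.1 (15 of the 17 described among them), 6 with a pseudocount of 5 (4 of the 17), 13 at a mean TPM of at least 10, 19 after median-ratio rescaling, 23 after quantile normalization (13 of the 17) and 16 to 25 without 1 library. The number lower in KO than in Ctrl on d4 was 8, and it was 5 after median-ratio rescaling and 5 to 8 without 1 library, with 5 without Ctrl d4 replicate 3, KO d4 replicate 1 or KO d4 replicate 3. The number higher in KO on d4 was 2, with 0 at a mean TPM of at least 10, where Pak6 and Ebi3 were not tested, 5 after quantile normalization and 2 to 3 without 1 library. On d0, 2 genes were lower in KO, with 1 after quantile normalization and 2 to 3 without 1 library, and 1 was higher, with 2 after quantile normalization and 1 to 2 without 1 library (2 without Ctrl d0 replicate 3). The numbers higher in Ctrl were 14 to 15 on d4 and 14 on d6 without 1 library.

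Of 1820 recomputed values of single genes, 1769 kept their side of the threshold, 38 lost the call, 10 gained one and 3 reversed, all after quantile normalization. These were Ebi3 (d4 against d0 in Ctrl, -0.12) and Pak6 (d4 against d0 in Ctrl, -0.24, and d6 against d0, -0.66). Their cause was not tested. Voom called 4488 genes higher and 2993 lower in Ctrl on d4. Libraries that share a replicate number deviated together for numbers 1 and 2 (correlations 0.148 to 0.231), with lower correlations for number 3 (-0.077 to 0.079). The main fit did not take the numbers as pairs. With the replicate block 15 genes were higher in Ctrl on d4 and 14 on d6, 8 were lower and 2 higher in KO on d4, and no call of the 17 genes changed. Every library correlated best with its own number in 2 of the 4 comparisons, and 4 of 6 libraries did in the other 2. Libraries of the same number may therefore share a deviation that the main fit leaves out. Depth limits Gm16550, Ebi3, Tmem35 and, on d0, Irx5. It also limits the KO d0 values of Ccnd2 (6 to 9 reads per library) and Slitrk5 (8 to 17).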
